A study of Mus musculus with 12 samples.

Results

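The *Hox* genes encode homeodomain transcription factors that give cells of the embryo their position along the body axis. They lie in the *Hoxa*, *Hoxb*, *Hoxc*, and *Hoxd* clusters, and genes at the same place in different clusters are paralogs. Genes at the 3′ end of a cluster (low paralog numbers) are switched on early and reach far into the hindbrain, and genes toward the 5′ end start later and mark the spinal cord and the tail end. In the brainstem they set the identity of hindbrain segments (rhombomeres) and of the neurons born there, and many stay on after birth. The members described here are the genes whose symbol is *Hox*, a cluster letter, and a number, which gave 39 of the 55418 genes in the count table: 11 in the *Hoxa* cluster (chromosome 6), 10 in *Hoxb* (chromosome 11), 9 in *Hoxc* (chromosome 15), and 9 in *Hoxd* (chromosome 2). Antisense RNAs of the clusters were not counted as members.

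RNA was measured in the brainstem (medulla and pons) of 12 outbred CFW mice (Swiss Webster) at P15. Saline was given to 3 females and 3 males and morphine to 3 females and 3 males, each mouse with its own poly-A library read as 100 bp single ends. Pups had received saline or 15 mg/kg morphine subcutaneously 2 times daily from P1 to P14, and tissue was taken 16 h after the last injection, in spontaneous withdrawal. The tissue label is brainstem, but the text on extraction in the labels names spinal cords, and no label gives the dam. Libraries held between 27850565 and 48097947 counts on genes, of which *Hox* genes took 4500 to 9792, or 0.0151% to 0.0236%. The glycine transporter gene *Slc6a5*, abundant in brainstem and spinal cord, was at 551.2 ± 53.3 CPM (SD, n = 12), and the serotonin synthesis gene *Tph2* at 31.2 ± 6.88, while the forebrain factor *Emx1* was at 0.0438 ± 0.0538. In the library labelled morphine male 6, *Xist* was at 379.9 CPM and the Y-linked *Ddx3y* at 12.8 CPM. In the other males *Xist* was at 0.398 to 2.71 CPM and *Ddx3y* at 117.8 to 198.8 CPM, and in females *Xist* was at 546.8 to 970.5 CPM and *Ddx3y* at 0.0576 to 0.729 CPM. The library thus matched neither its label nor the females, which bears on each male and interaction value. It also bears on the sex-combined values, which include this library and are adjusted for sex. It stayed in its labelled group, and calls of *Hox* members that change without it are given. For the companion and marker genes described below, calls without this library are not given.

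The homeobox, the stretch that codes for the DNA-binding homeodomain, was 180 bases long in each of the 39 genes. It is the part in which members are most alike, and so the place where short reads could be confused between them. It is shown for *Hoxb2*, *Hoxb7*, and *Hoxc6*, which passed the thresholds in a comparison below, and for *Hoxb6*, a paralog of *Hoxc6*, the gene with the largest change in both sexes together. Sequences are from GRCm38 with the GENCODE M21 annotation, 5′ to 3′ on the gene's strand, and lie within the coding part of an exon. Capitals mark the 18 bases for the stretch tryptophan, phenylalanine, glutamine, asparagine, arginine, arginine in the helix that reads the DNA. *Hoxb2* (chr11:96352985-96353164), *Hoxb6* (chr11:96300689-96300868), *Hoxb7* (chr11:96289385-96289564), and *Hoxc6* (chr15:103010754-103010933), all on the plus strand, read as follows.
Hoxb2: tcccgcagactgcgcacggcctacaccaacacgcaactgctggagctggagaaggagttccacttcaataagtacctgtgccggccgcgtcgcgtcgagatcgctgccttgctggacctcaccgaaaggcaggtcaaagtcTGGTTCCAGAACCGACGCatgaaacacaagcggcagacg
Hoxb7: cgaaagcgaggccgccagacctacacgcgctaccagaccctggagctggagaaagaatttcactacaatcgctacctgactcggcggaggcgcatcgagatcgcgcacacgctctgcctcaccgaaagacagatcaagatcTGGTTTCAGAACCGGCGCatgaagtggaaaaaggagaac
Hoxc6: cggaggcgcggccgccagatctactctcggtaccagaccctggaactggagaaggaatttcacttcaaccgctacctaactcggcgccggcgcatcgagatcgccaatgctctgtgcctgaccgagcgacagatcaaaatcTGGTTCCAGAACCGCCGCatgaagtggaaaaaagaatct
Hoxb6: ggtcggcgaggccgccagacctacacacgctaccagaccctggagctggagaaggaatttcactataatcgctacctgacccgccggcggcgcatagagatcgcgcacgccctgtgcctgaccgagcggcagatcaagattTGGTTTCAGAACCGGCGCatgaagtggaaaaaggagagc
The homeobox of *Hoxc6* was identical to that of *Hoxb6* at 82.8% of bases. Over the 42 pairs of the same paralog group, identity ranged from 67.2% to 93.9% with a median of 80.6%, and over the 699 other pairs the median was 60.6%. The longest run of identical bases in any pair was 52 (*Hoxa6* and *Hoxb4*), shorter than the reads. Of the 100-base windows in the transcripts of *Hoxb4*, *Hoxb7*, and *Hoxc6*, 0 occurred in another gene's transcripts. *Hoxc5* shared 2.3% of its windows with *Hoxc10*, which had 1 count in all. The gene model of *Hoxc5* (chromosome 15, 102967443 to 103017429) spans that of *Hoxc6* (102998257 to 103011881), but the genes share no exon bases. *Hoxb2* shared 24.5% of its windows with the antisense gene *Hoxb3os*, and *Hoxb3* shared 49.7%. *Hoxd3* and *Hoxd4* share 62.3% and 52.3% of their exon bases with other genes on the same strand, each other included. A strand setting for the counting is not given in the sources used here, so the split between these genes and their overlapping partners is uncertain.

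Genes of the middle paralog groups dominated the *Hox* RNA of the brainstem. Levels between genes are compared as RPKM, CPM per kilobase of exon, computed here from the counts. Groups 4 to 8 held 87.6% of the summed *Hox* RPKM, groups 1 to 3 held 12.0%, and groups 9 to 13 held 0.360%. By cluster, *Hoxb* gave 31.0 ± 5.63 RPKM (SD, n = 12), *Hoxa* 29.0 ± 3.22, *Hoxc* 13.3 ± 2.36, and *Hoxd* 5.78 ± 1.497. Of the 39 members, 35 had at least 1 count, and 20 reached 1 CPM in at least 3 libraries.

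**Figure D1:**
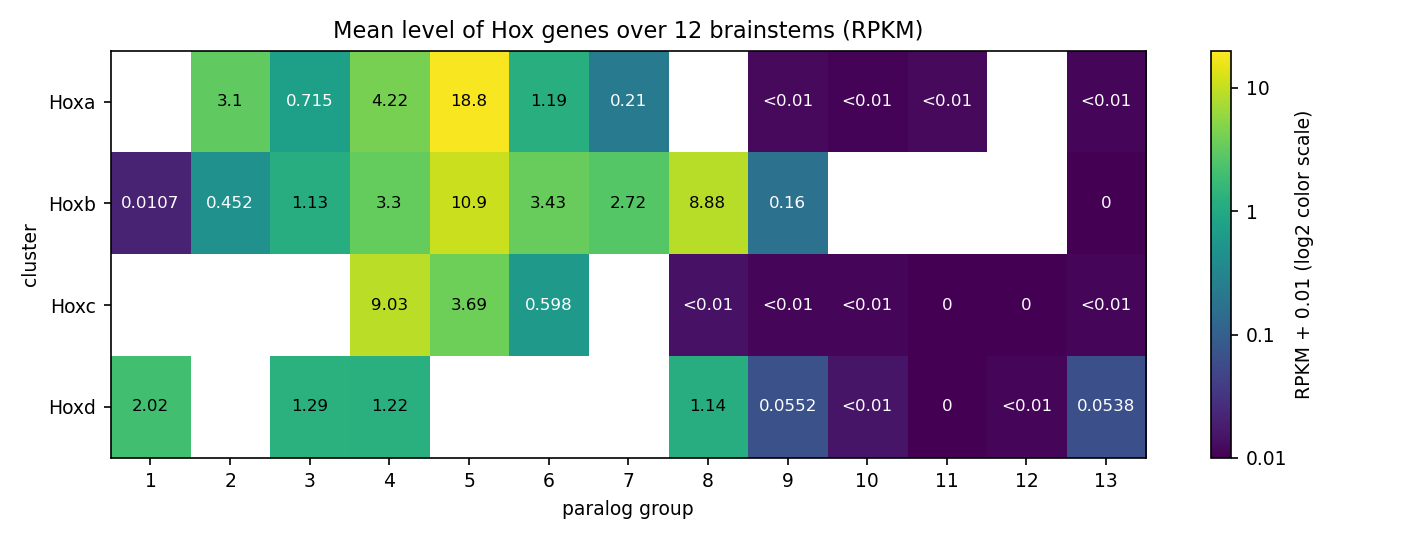
Mean RPKM of each *Hox* gene over the 12 libraries, with clusters as rows and paralog groups as columns on a log2 color scale; white cells have no gene in mouse or are not shown. *Hoxa5* (18.8), *Hoxb5* (10.9), *Hoxc4* (9.03), and *Hoxb8* (8.88) are highest, and groups 10 to 13 are near 0.

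*Hoxa5*, which is needed for the motor neurons of the diaphragm and for the lung, had the highest level, at 18.8 ± 2.76 RPKM (SD, n = 12). Its paralog *Hoxb5* followed at 10.9 ± 1.77, then *Hoxc4* at 9.03 ± 1.76 and *Hoxb8*, which acts in dorsal horn neurons, at 8.88 ± 2.20. These 4 genes held 60.1% of the *Hox* RPKM, and the last 2 differed by less than the spread between mice. *Hoxa4* (4.22 ± 0.784), *Hoxc5* (3.69 ± 0.543), *Hoxb6* (3.43 ± 1.21), *Hoxb4* (3.30 ± 0.672), and *Hoxa2* (3.10 ± 0.343) lay close together, and neighbors in this order did not differ beyond their SDs. *Hoxb7* (2.72 ± 0.621), *Hoxd1* (2.02 ± 0.458), *Hoxd3* (1.29 ± 0.237), *Hoxd4* (1.22 ± 0.224), *Hoxa6* (1.19 ± 0.501), *Hoxd8* (1.14 ± 0.900), and *Hoxb3* (1.13 ± 0.233) were the remaining members above 1 RPKM. *Hoxa3* (0.715 ± 0.125), *Hoxc6* (0.598 ± 0.204), *Hoxb2* (0.452 ± 0.170), *Hoxa7* (0.211 ± 0.0961), and *Hoxb9* (0.160 ± 0.125) were lower but had counts in all 12 libraries.

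Paralogs with the same number were often far apart in level. *Hoxd1* had 1524 counts over the 12 libraries, whereas *Hoxb1*, the gene that sets the identity of rhombomere 4 in the embryo, had 11. In group 8, *Hoxb8* had 9559 counts and *Hoxd8* had 1265, but *Hoxc8* had 5. The limit of posterior expression differed in the same way between clusters: the last member with a mean of at least 1 CPM was *Hoxa6*, *Hoxb8*, *Hoxc6*, and *Hoxd8*. Beyond these, *Hoxa7*, *Hoxb9*, and *Hoxd9* had 245, 166, and 48 counts. *Hoxd13*, the last gene of its cluster and active in digits and the urogenital tract, had 54 counts in 11 of 12 libraries, although *Hoxd10*, *Hoxd11*, and *Hoxd12* between it and *Hoxd9* had 4, 0, and 1. The other members of low count were *Hoxa9* (5), *Hoxa11* (2), *Hoxa10*, *Hoxa13*, *Hoxc9*, *Hoxc10*, and *Hoxc13* (1 each), and *Hoxb13*, *Hoxc11*, and *Hoxc12* (0). A count of 0 in a library allows a level of up to 3 counts, or between 0.0624 and 0.108 CPM, and this limit covers counting error only.

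Members differed widely in how much they varied between mice. Over the 22 members that passed the filter on low counts, the CV over 12 mice ranged from 11.0% (*Hoxa2*) to 79.0% (*Hoxd8*) with a median of 20.4%, and each exceeded its counting error. *Hoxb9* (78.1%), *Hoxa7* (45.7%), *Hoxa6* (42.1%), and *Hoxb2* (37.7%) came next. *Hoxd8* was at 6.82, 7.51, and 2.27 CPM in saline females 4, 5, and 6 and at 6.89, 2.45, and 2.53 CPM in morphine females 1, 2, and 3. In males it was at 0.745, 2.10, and 2.76 CPM with saline and at 1.19, 0.820, and 1.48 CPM with morphine. Saline females 4 and 5 and morphine female 1 thus stood apart from the other mice, which did not exceed 2.76 CPM. The same 3 mice were highest in *Hoxa7* (1.05, 1.16, and 0.830 CPM) and in *Hoxd9* (0.466, 0.213, and 0.430 CPM). They were not the highest in *Hoxb9*, which was at 0.175, 1.28, and 0.246 CPM in them and at 0.624 CPM in morphine female 3. In *Hoxb8*, they were at 28, 37.7, and 20.8 CPM against 15.4 to 27.5 CPM in the others. In these 3 mice the 8 choroid plexus markers summed to 12.9, 43.2, and 169.1 CPM, against 32.8 to 859.7 CPM in the others. A part of this in the *Hoxd8* levels was not tested.

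**Figure D2:**
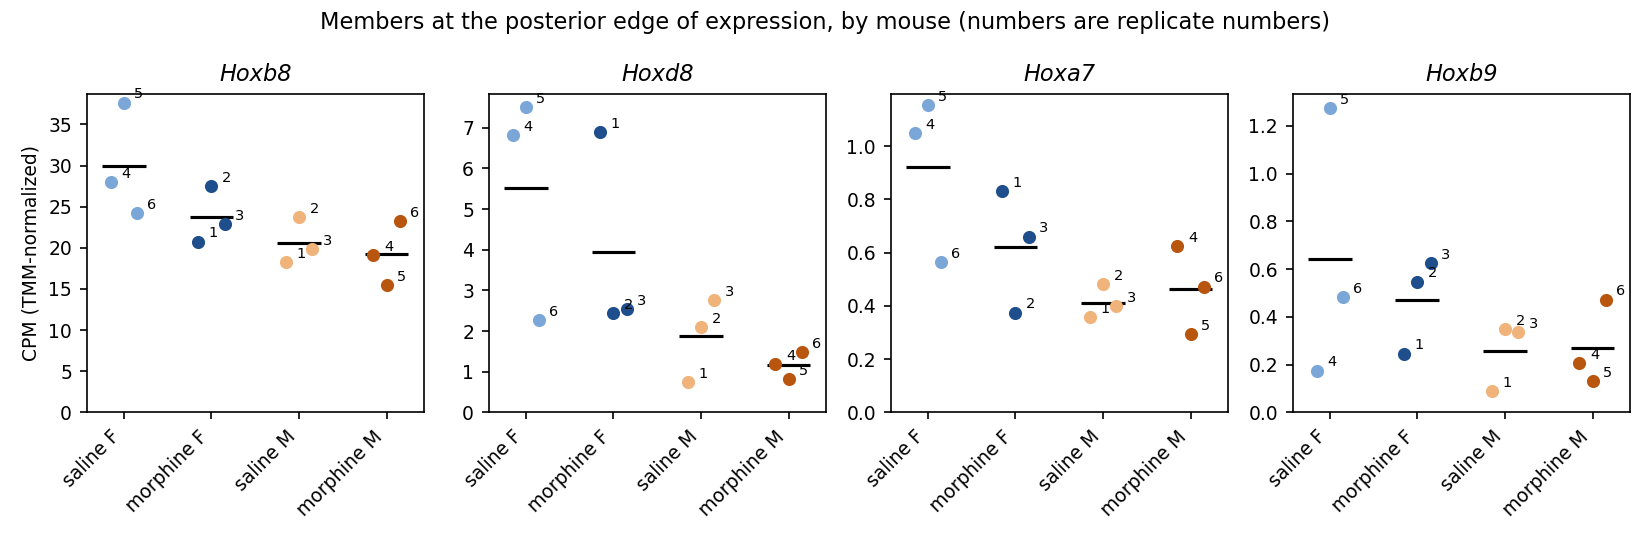
CPM of *Hoxb8*, *Hoxd8*, *Hoxa7*, and *Hoxb9* in each mouse (points, with replicate numbers) by sex and treatment (F, females; M, males), with the group mean as a line. *Hoxd8* is near 7 CPM in saline females 4 and 5 and morphine female 1 and between 0.745 and 2.76 CPM elsewhere.

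Many members rose and fell together across mice. For each mouse, the median over the 22 genes of the deviation from the gene's mean (log2 CPM) was taken. It was highest in saline females 4 (0.305) and 5 (0.195) and saline male 2 (0.168), where 18, 18, and 17 of 22 genes were above their mean. It was lowest in morphine male 5 (-0.36), the library labelled morphine male 6 (-0.20), and saline male 1 (-0.17), with 3, 6, and 8 of 22 genes above their mean. The other mice lay between -0.09 and 0.09, so saline and morphine mice overlapped. The share of all genes above their mean in each mouse was not compared, so the pattern is not shown to be particular to *Hox* genes. The genes of groups 4 to 8 spread more widely (-0.43 in morphine male 5 to 0.345 in saline female 4) than those of groups 1 to 3 (-0.28 to 0.142). Saline male 2 was highest in *Hoxb2* (3.33 CPM), *Hoxa3* (6.39), *Hoxb3* (7.00), *Hoxb4* (12.0), and *Hoxb6* (12.7). In this mouse the 9 skeletal muscle markers summed to 43.2 CPM, against 1.78 to 6.39 CPM in the others, and the part of this in its *Hox* levels was not tested. In bulk tissue, fewer cells with *Hox* RNA and less RNA per cell cannot be told apart.

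**Figure D3:**
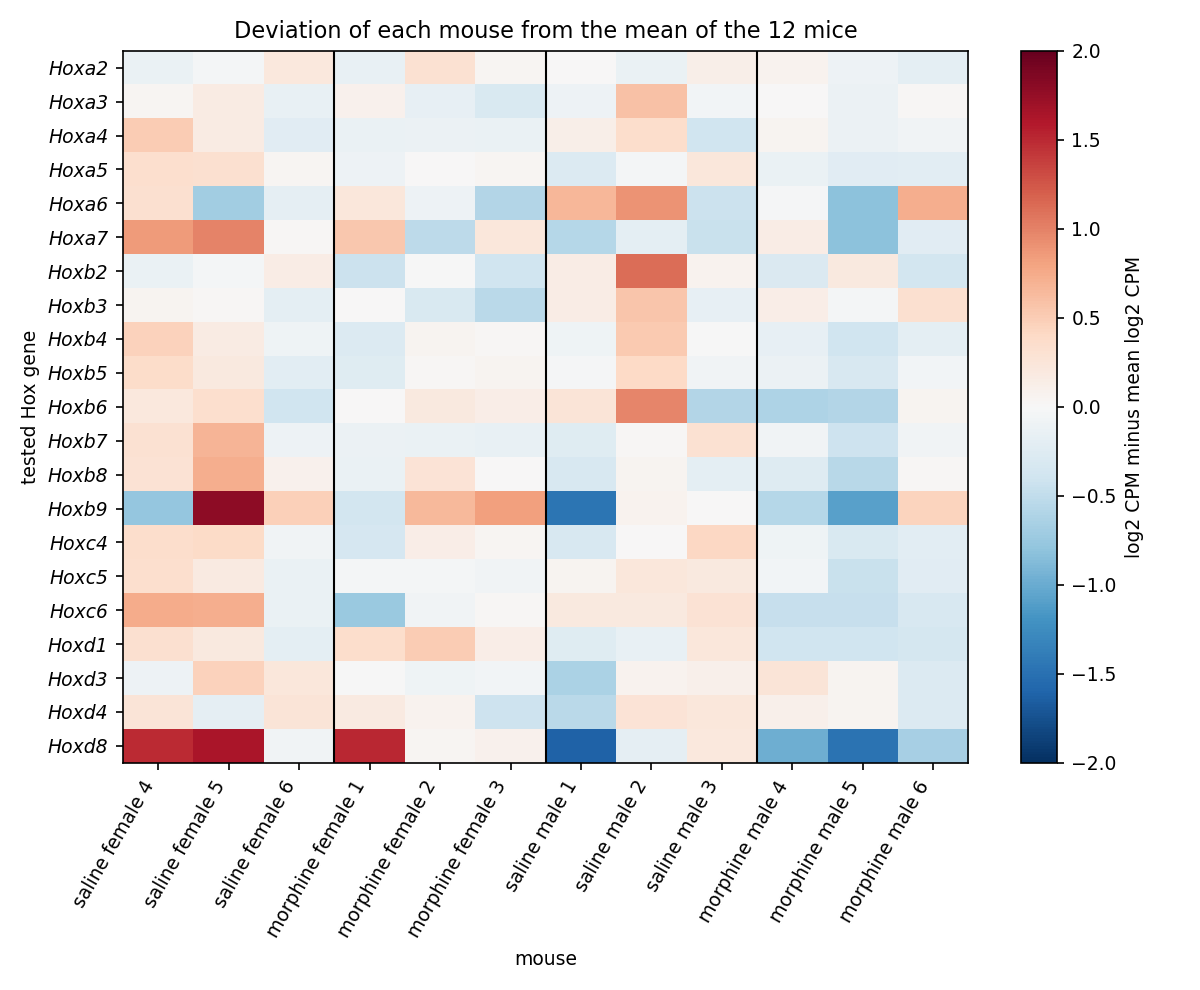
Log2 CPM (with 0.05 CPM added) of 21 of the 22 tested *Hox* genes in each mouse, minus the gene's mean over 12 mice; red is above and blue below the mean, and black lines part the groups. Most genes are red in saline females 4 and 5 and saline male 2 and blue in morphine male 5.

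The sex-combined comparison asked whether *Hox* genes differed between 6 morphine and 6 saline mice. *Hoxc6*, *Hoxb2*, *Hoxb4*, and *Hoxc5* were lower in morphine mice and passed the thresholds of the study (called below), which ask for an unadjusted *p* under 0.05 together with a log2 fold change beyond 0.26 in size. These were 4 of the 22 tested members. Over all genes, 0.58% were called lower and 1.19% in either direction. These genes stand in a list for anterior/posterior patterning that was chosen on these same mice, so their change is not independent evidence. No member had an adjusted *p* under 0.05 (0 of 22 by edgeR's quasi-likelihood test, by exactTest, or by DESeq2, against 4 whose unadjusted quasi-likelihood *p* was under 0.05), and each adjusted *p* from the quasi-likelihood test was 1.00. The 4 genes had a log2 fold change below 0, as did 17 others. The count was 21 of 22 under TMM, where *Hoxa2* (0.00) was the exception, and it was 22 when DESeq2's size factors were used and 19 when total counts were. Over all genes, 57.4% were below 0. The members had a median of -0.21 on the log2 scale, and all genes had -0.02.

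*Hoxc6*, which in the spinal cord marks neurons at forelimb level, had the largest change. It was at 2.33, 2.31, and 1.25 CPM in saline females 4, 5, and 6 and at 0.799, 1.30, and 1.39 CPM in morphine females 1, 2, and 3. It was at 1.58, 1.58, and 1.69 CPM in saline males 1, 2, and 3 and at 0.981, 0.984, and 1.09 CPM in morphine males 4, 5, and 6. Saline female 6 lay within the range of the morphine mice, and the other 5 saline mice lay above every morphine mouse. Levels were 1.09 ± 0.22 CPM (SD, n = 6) with morphine and 1.79 ± 0.438 CPM with saline, on 26 to 80 counts per library. The log2 fold change was -0.70 (SE 0.19, unadjusted *p* = 0.00333 from edgeR). *Hoxc6* was called in each of the 12 fits without 1 mouse (-0.82 to -0.62) and under each of the 9 other settings (-0.71 to -0.65).

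*Hoxb4*, which is expressed from the posterior medulla backward, was at 11.4, 9.36, and 7.87 CPM in saline females and at 6.89, 8.62, and 8.44 CPM in morphine females. It was at 7.81, 12.0, and 8.24 CPM in saline males and at 7.46, 6.30, and 7.23 CPM in morphine males. The morphine males were below all saline mice, whereas the morphine females overlapped with them. The log2 fold change was -0.33 (SE 0.14, unadjusted *p* = 0.0322 from edgeR). *Hoxc5*, which acts with *Hoxa5* in the motor neurons of the diaphragm, was at 14.2, 12.7, and 10.3 CPM in saline females and at 11.0, 11.0, and 10.8 CPM in morphine females. It was at 11.8, 13.3, and 13.0 CPM in saline males and at 10.9, 8.26, and 9.63 CPM in morphine males. As for *Hoxc6*, saline female 6 was the saline mouse within the morphine range. The log2 fold change was -0.28 (SE 0.11, unadjusted *p* = 0.0227 from edgeR). Without saline male 2 both genes lost the call (-0.23 for *Hoxb4* and -0.26 for *Hoxc5*), as they did without saline female 4 or morphine male 5. *Hoxb4* also lost it without morphine female 1 or without the library labelled morphine male 6.

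*Hoxb2*, a gene of the anterior hindbrain, was at 3.33 CPM in saline male 2 and at 1.67 and 1.59 CPM in saline males 1 and 3. Saline females were at 1.37, 1.46, and 1.67 CPM, morphine females at 1.11, 1.499, and 1.14 CPM, and morphine males at 1.22, 1.74, and 1.15 CPM. Apart from saline male 2, the groups overlapped. The log2 fold change was -0.47 (SE 0.22, unadjusted *p* = 0.0483 from edgeR). It was -0.25 without saline male 2 and no longer called, and -0.40 without the library labelled morphine male 6, again not called. *Hoxb2* was called in 5 of the 12 fits without 1 mouse. It also missed the threshold with exactTest, the test the study used (-0.49, unadjusted *p* = 0.0513), and with scaling by total counts (-0.42).

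The number of called members rested on single mice. It was 1 without saline male 2, 2 without saline female 4 or without morphine male 5, 7 without saline female 6, and 3 (*Hoxb7*, *Hoxc5*, and *Hoxc6*) without the library labelled morphine male 6. It was 3 with exactTest (*Hoxb4*, *Hoxc5*, and *Hoxc6*) and 5 with DESeq2, which added *Hoxb7*. With scaling by total counts it was 1 (*Hoxc6*). All-gene calls moved too, from 221 of 18608 with all mice to 417 of 18842 without saline female 6. They were 241 of 18913 without saline male 2, 207 of 18936 without saline female 4, and 193 of 18909 without morphine male 5. Without the library labelled morphine male 6 they were 222 of 18924. With exactTest they were 218 of 18012, with DESeq2 224 of 18608, and with total counts 249 of 18608. For 0 of the 22 members did the 6 morphine mice all lie below the 6 saline mice, which was so for 0.0322% of all genes.

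**Figure D4:**
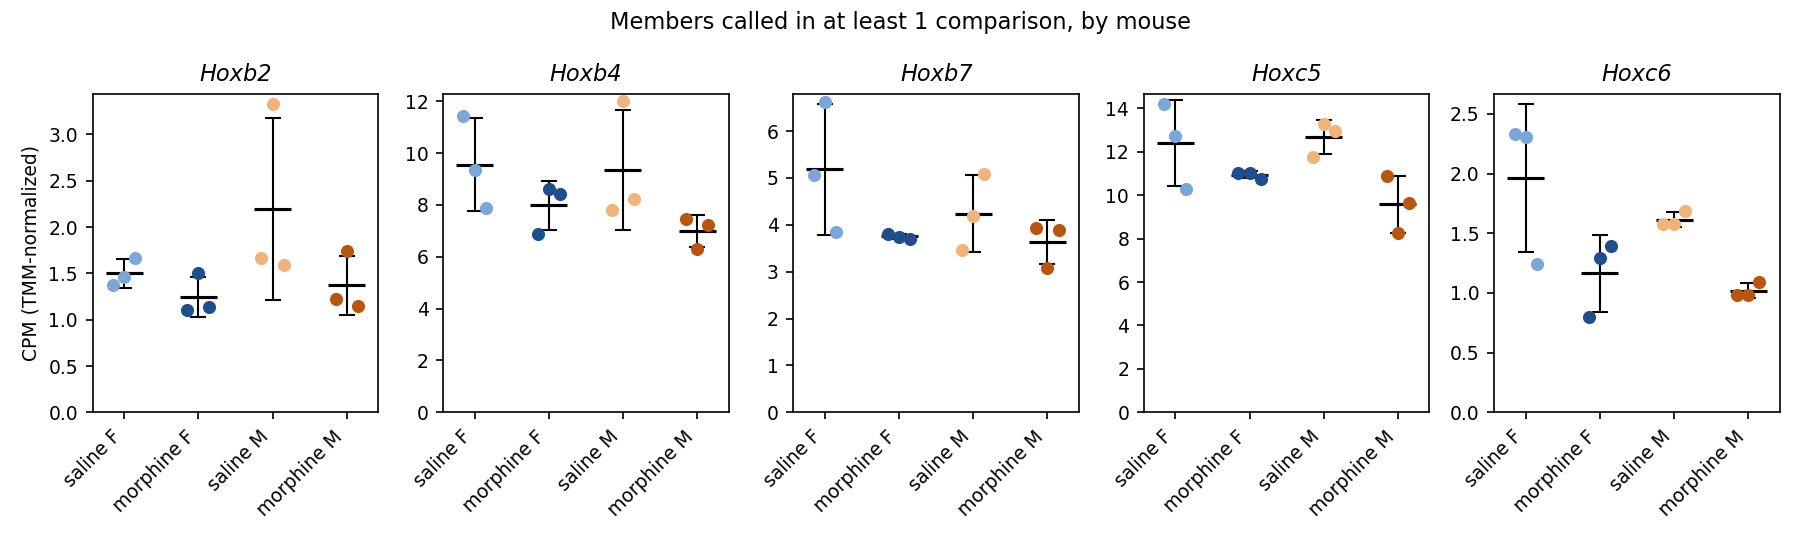
CPM in each mouse (points) of the 5 *Hox* genes called in at least 1 comparison, by sex and treatment (F, females; M, males), with mean and SD of each group (n = 3). In *Hoxc6*, morphine males (0.981 to 1.09 CPM) lie below saline males (1.58 to 1.69 CPM), and the high *Hoxb2* point is saline male 2.

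By paralog group, the tested members of groups 4 to 8 had a median log2 fold change of -0.24, with 14 of 14 below 0 and 3 called, and those of groups 1 to 3 a median of -0.08, with 6 of 7 below 0 and 1 called. *Hoxb9* was the tested member of groups 9 to 13 (-0.22, SE 0.49). By cluster, medians were -0.19 (*Hoxa*, 0 of 7 called), -0.27 (*Hoxb*, 2 of 8), -0.28 (*Hoxc*, 2 of 3), and -0.07 (*Hoxd*, 0 of 4). Differences between groups of members were not tested. Just outside the thresholds lay *Hoxb7* (-0.33, SE 0.16, unadjusted *p* = 0.0523 from edgeR), *Hoxa5* (-0.20, SE 0.10, unadjusted *p* = 0.0557), and *Hoxc4* (-0.26, SE 0.14, unadjusted *p* = 0.0744). *Hoxd8* had a large difference with a wide error (-0.56, SE 0.38). The highest members of *Hoxa*, *Hoxb*, and *Hoxc* overlapped between treatments. *Hoxa5* was at 44.0, 43.8, and 35.7 CPM in saline females, 32.4, 35.1, and 36.0 in morphine females, 28.8, 34.1, and 40.8 in saline males, and 32.0, 29.9, and 30.2 in morphine males. *Hoxb5* was at 38.7, 34.2, and 25.9 CPM in saline females, 25.2, 30.6, and 31.0 in morphine females, 29.5, 39.4, and 28.6 in saline males, and 27.6, 23.9, and 28.9 in morphine males (-0.22, SE 0.12). Among the morphine mice, both genes were lowest in morphine male 5. *Hoxc4* was at 29.2, 29.9, and 21.7 CPM in saline females, 18.1, 24.96, and 23.4 in morphine females, 18.3, 22.9, and 30.3 in saline males, and 21.4, 18.4, and 19.8 in morphine males.

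**Figure D5:**
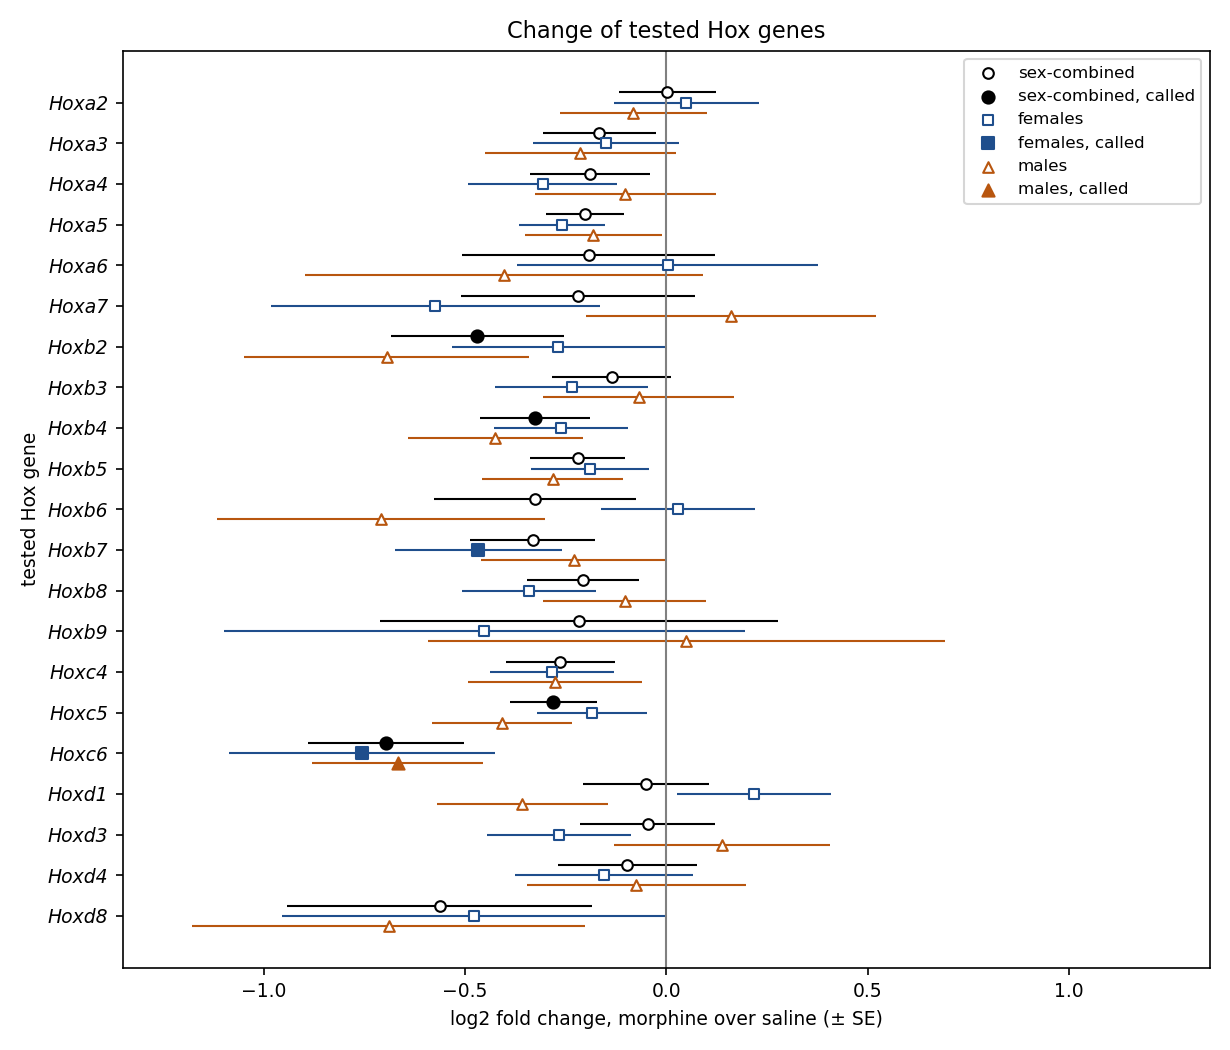
Log2 fold change, morphine over saline, of 21 of the 22 tested *Hox* genes with its SE in the sex-combined comparison (circles), in females (squares), and in males (triangles); filled symbols passed the thresholds. *Hoxc6* is filled in all 3, at -0.70, -0.76, and -0.67.

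In females, *Hoxc6* and *Hoxb7* were lower with morphine and called, 2 of 22 members, against 0.884% of all genes called lower and 1.81% in either direction. Of the members, 17 of 22 were below 0 (51.8% of all genes), with a median of -0.26 against -0.01 for all genes. Each adjusted *p* from edgeR rounded to 1.00. *Hoxc6* fell by a log2 fold change of -0.76 (SE 0.33, unadjusted *p* = 0.0453). It lost the call without saline female 4, saline female 5, morphine female 1, or morphine female 2. *Hoxb7*, active in the posterior trunk and kidney ducts, was at 5.07, 6.62, and 3.85 CPM in saline females and at 3.81, 3.75, and 3.71 CPM in morphine females. The groups did not overlap, but saline female 6 and morphine female 1 lay next to each other. The log2 fold change was -0.47 (SE 0.21, unadjusted *p* = 0.0495 from edgeR) and was -0.25 without saline female 5. *Hoxb7* was called in 1 of the 6 fits without 1 mouse and in 2 of 8 other settings, and missed the threshold with exactTest (unadjusted *p* = 0.0535) and with DESeq2, where *Hoxa5* was called in its place. *Hoxa5* had an unadjusted *p* of 0.0354 from edgeR but a log2 fold change of -0.26 that fell just short of the threshold. Of the 22 members, 1 (*Hoxb7*) had morphine females all below saline females, against 2.87% of all genes. The count of calls was 9 without saline female 6, 0 without saline female 5, and 1 without saline female 4, morphine female 1, or morphine female 2. Over all genes, 328 of 18109 were called with all females, 234 of 18485 without saline female 6, and 236 of 18582 without saline female 5. Without morphine female 1 it was 208 of 18623, and without morphine female 2 it was 690 of 18502. Without saline female 4 it was 1482 of 18631, so that the members were called at a lower share than all genes.

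In males, *Hoxc6* was the called member, 1 of 22, against 1.07% of all genes called lower and 2.99% in either direction. The log2 fold change was -0.67 (SE 0.21, unadjusted *p* = 0.0160 from edgeR, adjusted *p* = 1.00). The median was -0.24 against -0.06 for all genes, and 19 of 22 members were below 0 (62.4% of all genes). With scaling by total counts the median of all genes moved to 0.06, that of the members was -0.11, and 14 of 22 were below 0. Morphine males were all below saline males for 4 of 22 members (*Hoxb4*, *Hoxc5*, *Hoxc6*, and *Hoxd1*), against 4.06% of all genes. The smallest *p* that an exact permutation test allows for 3 mice against 3 is 0.1. *Hoxd1*, which acts in pain-sensing neurons, was at 3.10, 3.30, and 4.32 CPM in saline males and at 2.76, 2.79, and 2.86 CPM in morphine males, with a log2 fold change of -0.36 (SE 0.21, unadjusted *p* = 0.137 from edgeR). *Hoxb6* (-0.71, SE 0.41), *Hoxb2* (-0.70, SE 0.35), and *Hoxd8* (-0.69, SE 0.49) had differences as large as that of *Hoxc6* with wider errors, and were not called. *Hoxb6* was at 7.66, 12.7, and 4.23 CPM in saline males and at 4.13, 4.26, and 6.64 CPM in morphine males, so the groups overlapped. *Hoxc6* lost the call without morphine male 4 or morphine male 5, when 0 members were called. There were 4 called without saline male 3, 2 without saline male 1, and 1 without the library labelled morphine male 6. Without saline male 3, however, 5341 of 18652 genes were called, against 543 of 18166 with all males, so that the members were called at a lower share than all genes.

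The interaction of treatment and sex (change in males minus change in females) was called for 0 of the 22 members with edgeR's quasi-likelihood test and with DESeq2, and 0 had an unadjusted *p* under 0.05. Over all genes, 2.94% were called. The smallest *p* was that of *Hoxd1* (-0.55, SE 0.28, unadjusted *p* = 0.0749 from edgeR, adjusted *p* = 0.985), which was at 4.58, 4.22, and 3.20 CPM in saline females and at 4.67, 5.25, and 4.04 CPM in morphine females. It was called without saline female 4, where 952 of 19481 genes were called, and *Hoxb6* was called without saline male 3, where 4695 of 19472 genes were. For *Hoxc6* the interaction was 0.11 (SE 0.41). The sexes were thus not shown to differ for *Hoxc6*, although the error leaves room for differences of that size or larger.

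Genes that work with or control *Hox* genes were described from lists. Of the 9 TALE homeodomain genes (*Pbx*, *Meis*, and *Pknox*), whose proteins bind DNA together with Hox proteins, 0 were called in the sex-combined comparison, in females, or in males, with medians of 0.03, 0.03, and -0.02. Of the 14 upstream regulators, which include *Cdx* genes and *Egr2*, 8 were tested in both sexes together and 0 were called in any of the 3 comparisons. In the interaction, *Gmnn* was called (-0.57, SE 0.24, unadjusted *p* = 0.0342 from edgeR), though not when total counts set the scale. Polycomb genes, which keep *Hox* genes silent outside their domains, had 0 of 28 called in each comparison, but 1 in both sexes together when total counts set the scale. Trithorax proteins and H3K27 demethylases keep *Hox* genes active. Of 14 tested genes in a list of these and a few other chromatin genes, 0 were called in both sexes together. *Hdgfl2*, one of the other chromatin genes, was higher in morphine females (0.28, SE 0.11, unadjusted *p* = 0.0311 from edgeR). The methyltransferase gene *Kmt2a* was higher in morphine males (0.39, SE 0.14, unadjusted *p* = 0.0247 from edgeR). *Evx1* and *Evx2*, homeobox genes next to the *Hoxa* and *Hoxd* clusters, were not called.

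Retinoic acid, made by retinaldehyde dehydrogenases, switches on 3′ *Hox* genes in the embryo. Of 16 tested genes of this pathway, 0 were called in both sexes together and in males, and 2 were lower in morphine females. *Aldh1a2*, an enzyme of retinoic acid synthesis, was at 7.07 ± 0.642 CPM (SD, n = 3) in morphine and 12.9 ± 3.08 CPM in saline females, a log2 fold change of -0.88 (SE 0.19, unadjusted *p* = 0.000906 from edgeR, adjusted *p* = 1.00). *Crabp2*, a binding protein for retinoic acid, was at 2.22 ± 0.492 and 3.81 ± 1.24 CPM, with -0.78 (SE 0.27, unadjusted *p* = 0.0164 from edgeR). Their interactions with sex were called too (0.85, SE 0.36, and 0.83, SE 0.36). Both genes are also expressed in the meninges, and 5 of the 10 meningeal fibroblast markers were called lower in morphine females. That list summed to 98.2 to 182.8 CPM in morphine females and to 160.5 to 240.8 CPM in saline females, and its part in the change of *Aldh1a2* and *Crabp2* was not tested. Of the 9 antisense and opposite-strand RNAs of the clusters, 5 were tested and 0 were called, with a median of -0.13. *Hoxaas2* (3.78 ± 0.442 CPM), *Hoxb3os* (3.17 ± 0.580), and *Hotairm1* (1.97 ± 0.270) led them, while *Hotair* and *Hottip* had 0 counts.

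Markers of other tissues moved with treatment in some comparisons. In males, 6 of the 8 choroid plexus markers were called higher with morphine, and the list summed to 426.8 to 859.7 CPM in morphine males and 274.1 to 534.6 CPM in saline males. In females it summed to 32.8 to 169.1 CPM with morphine and 12.9 to 484.9 CPM with saline, with 0 called. Of the 10 cerebellar granule cell markers, 3 (*Cbln3*, *Fat2*, and *Gabra6*) were called higher in both sexes together and in males, and the list was highest in morphine male 5 (316.9 CPM against 207.3 to 253.8 CPM in the others), the mouse with the lowest *Hox* median. Of the meningeal markers, 3 of 10 were called lower in both sexes together. Of the 8 oligodendrocyte markers, 1 was lower in both sexes together and 2 in males, where the list summed to 34550 to 43660 CPM with morphine and 39970 to 61900 CPM with saline. The part of these in the *Hox* results was not tested. The factors of the midbrain and rhombomere 1 had 1 of 9 tested genes called higher (*Lmx1a*) in both sexes together and 2 in males (*Lmx1a* and *Otx2*, the latter also a choroid plexus marker), the skeletal muscle list had 1 of 6 (*Myh8*) called higher in both sexes together, with the other 5 below 0 and not called, the astrocyte list had 1 of 8 lower (*Gjb6*) in males, and the dorsal horn list had 1 of 13 lower (*Gal*) in males. The lists of forebrain factors, Purkinje cells, motor neurons, monoamine and glycine neurons, neurons, microglia, endothelium and pericytes, ependymal cells, red blood cells, and peripheral glia had 0 called in these 3 comparisons. The Purkinje cell list, like that of granule cells, was highest in morphine male 5 (381.3 CPM against 287.7 to 341.5 CPM in the others). Its part in the *Hox* results was not tested. Markers of neurons in the dorsal horn, shared by spinal cord and medulla, summed to 97.9 to 153.6 CPM, with overlapping groups. The sum was highest in saline male 2, and morphine male 5 was at 98.2 CPM. It was lowest in saline female 6, however, and saline female 4, with the highest *Hox* median, was at 111.0 CPM. The part of this list in the *Hox* results was not tested.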

How the data were processed

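Per the labels and the paper's methods, the authors used Trimmomatic for trimming, STAR for alignment to mm10, and featureCounts for counting over exons. The deposited values are raw counts per gene for 55418 genes. All are whole, and library totals differ. Group means and SDs here are CPM with TMM factors over the 12 libraries. RPKM was computed from these with the summed exon length in GENCODE M21 (GRCm38), where every symbol was found and 115 stand for more than 1 gene.

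Treatment was tested with edgeR 4.0.16 (quasi-likelihood, TMM, filterByExpr) in R 4.3.3 on all genes, sex-combined (adjusted for sex), within each sex, and for the interaction with sex. The adjustment was Benjamini-Hochberg over all genes tested. Each SE is the size of the log2 fold change divided by the square root of the test's F statistic. It thus restates the quasi-likelihood test and is no separate estimate of error. Genes passed at an unadjusted *p* under 0.05 if their log2 fold change was beyond 0.26 in size, and 17 members with too few counts were not tested. Alternatives were exactTest, DESeq2 1.42.0, DESeq2's size factors, total counts, no filter, a minimum of 10 counts per library, offsets for GC content and exon length (loess, span 0.5), no sex covariate, the replicate number as a block, the contrast from the fit of all 12 mice, *p* alone, and leaving out each mouse. Fits were tested on simulated data. The deviations of each mouse used log2(CPM + 0.05). Libraries were separate mice, and none of the 66 pairs agreed within sampling noise. Members are named with their level or their counts, and some items are not reported here. Values in each mouse are given for members called in a comparison, for the highest member of each cluster, for members of the study's pattern list, and, chosen after their values were seen, for *Hoxd8*. Values in some mice of *Hoxa7*, *Hoxb6*, *Hoxb8*, *Hoxb9*, and *Hoxd9* were chosen in the same way. From each list of companion genes, at most 3 called genes with the smallest *p* are named. The members and lists were chosen with earlier results of these data known.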

Additional observations from a re-analysis of the deposited data

Results flagged for a closer look

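In the 6 saline or the 6 morphine mice, 6 of 46 sets of values had a sample far from the others (Dixon's test at 95%, which chance alone trips in about 1 of 20 sets). Saline male 2 was the high mouse of the saline group for *Hoxb2* (3.33 CPM) and *Hoxa3* (6.39 CPM). Saline female 5 was high for *Hoxb9* (1.28 CPM). Among the morphine mice, morphine female 1 was high for *Hoxd8* (6.89 CPM), morphine male 4 was high for *Hoxa4* (6.90 CPM), and morphine male 5 was low for *Hoxb7* (3.08 CPM).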

How the results depend on the processing

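In both sexes together, 4 members were called, 3 with exactTest, 5 with DESeq2, its size factors, loess offsets, or no sex covariate, 1 with scaling by total counts, and 1 to 7 without 1 mouse. All-gene calls there were 221, with 316 under loess offsets, 249 under total counts, and 177 to 458 without 1 mouse. In females, where 2 members were called, the count of members was 1 with exactTest, with total counts, with at least 10 counts in every library, and with the contrast from all 12 mice, 5 with loess offsets, 6 without a filter on low counts, and 0 to 9 without 1 mouse. All-gene calls in females were 328 of 18109, and 1094 of 34716 without a filter on low counts. They were 307 with loess offsets and 208 to 1482 without 1 mouse. In males, where 1 member was called, the count of members was 2 with loess offsets, 3 with the contrast from all 12 mice, and 0 to 4 without 1 mouse. All-gene calls in males rose too, from 543 to 1240 with loess offsets, to 790 with the contrast from all 12 mice, and to 5341 without saline male 3, the fit with 4 members called. For the interaction it was 0, and 0 to 1 without 1 mouse. The median log2 fold change of the members kept its sign under the settings run, from -0.28 to -0.15 in both sexes together, -0.33 to -0.17 in females, and -0.34 to -0.11 in males. *Hoxc6* was called under all settings in both sexes together. With the replicate number as a block, 4 members were called and the median was -0.21. Whether the numbers pair littermates cannot be decided, since no label gives the dam and the paper assigned pups to saline or morphine within litters. Same-numbered mice were of opposite sex. Their deviations correlated between -0.34 and 0.176. The mice numbered 1 were the pair in which each correlated best with its own number. Low counts limit *Hoxc6* (26 to 80 per library) and members of groups 9 to 13.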
